A study of Mus musculus with 4 samples.

Results

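The genes described here are 10 components of the NF-κB pathway: the subunit genes *Nfkb1*, *Nfkb2*, *Rel* and *Relb*, and the feedback inhibitor genes *Nfkbia*, *Nfkbie*, *Tnfaip3*, *Nfkbiz*, *Nfkbid* and *Bcl3*. They were chosen by symbol. All 10 were found among the 28585 genes listed, and all 10 were among the 17948 genes tested, those whose mean reached 0.1 FPKM (mapped fragments scaled by transcript length and library depth). *Nfkbiz* was the starting point because the study displayed it among lower genes from these same libraries, so its own difference is a description and not independent evidence. The comparison asked whether the other subunits and inhibitors followed it.

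Bulk RNA sequencing was performed on polymorphonuclear myeloid-derived suppressor cells (PMN-MDSCs), neutrophil-like cells that restrain T cells, sorted as CD11b+ Ly6C lo/- Ly6G+ cells from the spleens of mouse pups on postnatal day 7. There were 4 libraries. In 2 of them the pups were Dhps cko (Dhps fl/fl with Lysm cre), and in the other 2 they were Dhps flox (Dhps fl/fl without the Cre), on a C57BL/6J background. *Dhps* encodes deoxyhypusine synthase, which makes the hypusine residue of the translation factor eIF5A, and the Cre is driven by the *Lysm* locus, which is active in neutrophils and macrophages. Whether each library came from 1 pup or from a pool is not given in the sources used here, so p-values measure the spread between these samples, which may be technical.

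NF-κB is a family of dimeric transcription factors that carry the response of myeloid cells to microbial products and inflammatory cytokines. Cytoplasmic IκB proteins hold the dimers outside the nucleus until the IκB kinase marks them for destruction. Several inhibitors are themselves NF-κB targets, so the pathway switches on the genes that switch it off. A separate group of nuclear IκB proteins (IκBζ, IκBNS and BCL3) binds NF-κB on DNA and raises or lowers selected targets.

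The targeted gene *Dhps* (ENSMUSG00000060038) was at 2.38 and 2.59 FPKM in the Dhps cko libraries and 3.57 and 3.11 FPKM in the Dhps flox libraries. Its level was therefore 74.4% of the Dhps flox mean, and transcripts remained in both Dhps cko libraries (log2 fold change -0.41, standard error 0.13, adjusted p = 0.63 from limma). Of the neutrophil genes that define the sorted cells, *S100a8* was between 7165 and 8662 FPKM in the 4 libraries. *Ly6g*, the gene of the sorting marker, was at 222.2 and 241.6 FPKM in Dhps cko and 194.9 and 184.8 in Dhps flox (log2 fold change 0.29, adjusted p = 0.53 from limma), the only one of 12 neutrophil genes with an unadjusted p under 0.05, and 4 of the 12 were higher without overlap, as were 20.0% of all genes. At an unadjusted p under 0.05, 6 of 8 B cell, 3 of 8 T cell and 4 of 10 monocyte and macrophage markers were higher in Dhps cko and none was lower, where 4.72% of all genes were higher and 2.28% lower, with no adjusted p under 0.05 from limma. The 8 B cell markers summed to 67.5 and 70.4 FPKM in Dhps cko and 43.2 and 52.4 in Dhps flox, the 8 T cell markers to 18.5 and 15.0 against 11.9 and 8.01, and the 10 monocyte and macrophage markers to 169.3 and 174.0 against 140.5 and 134.4. The 5 eosinophil markers summed to 12.1 and 10.5 against 8.34 and 8.78, and the dendritic cell markers to 1.97 and 1.96 against 1.65 and 1.52, with 3 of 5 and 3 of the 4 tested higher without overlap. The 8 erythroid markers, with 1 higher without overlap, summed to 734.5 and 881.0 against 608.0 and 916.4. None of the B cell or T cell markers was at 0 in any library. The sum of 4 genes on the Y chromosome (*Uty*, *Kdm5d*, *Eif2s3y*, *Ddx3y*) was 7.07 and 8.07 FPKM in Dhps cko and 17.6 and 15.6 in Dhps flox, and *Xist*, the transcript of the inactive X chromosome, was at 27.54 and 20.27 against 16.25 and 17.17. Both were detected in all 4 libraries, and the proportion of the sexes and the genotype cannot be told apart.

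Promoter sequence was not used to choose the members, although several were chosen as feedback inhibitors, a role in which NF-κB targets are common. RefSeq promoter windows (GRCm38.p6, 250 bases before to 50 bases after a start site) were at hand for 7 members: *Nfkbia*, *Nfkbie*, *Tnfaip3*, *Nfkbid*, *Bcl3*, *Nfkb2* and *Rel*. No window was used for *Nfkbiz*, *Nfkb1* or *Relb*. The 10-base κB consensus was searched on both strands, and overlapping matches were joined. It was found in at least 1 window of all 7 genes and in 9 of their 12 windows, although the same site of *Nfkb2* lies in 2 windows. Among the NF-κB target genes described further on, 8 of 26 with a window held it (30.8%). It was found in 5.14% of the 27025 genes with a window and in 4.51% of all 32851 windows. The 250 bases upstream of *Nfkbia*, the most abundant member, are shown first because a single site lies close to the start, in capitals, on the minus strand of chr12:55492648-55492897.

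*Nfkbia*: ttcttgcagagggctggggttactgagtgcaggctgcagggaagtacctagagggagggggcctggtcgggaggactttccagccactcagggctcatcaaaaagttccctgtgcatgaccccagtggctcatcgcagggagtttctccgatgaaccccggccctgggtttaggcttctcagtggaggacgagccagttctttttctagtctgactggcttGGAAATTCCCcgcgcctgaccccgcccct

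The sites of the other members are shown with 9 flanking bases on each side, each 5′ to 3′ on its gene's strand, with the match in capitals, so that the letters can be compared between members. They lie at chr17:45555585-45555612 (plus strand), chr10:19015517-19015544 and chr10:19015404-19015431 (minus strand), chr7:30422171-30422198 and chr7:30422216-30422243 (plus strand), chr7:19822735-19822762 (minus strand), chr19:46304689-46304717, chr19:46304717-46304744, chr19:46305450-46305477 and chr19:46305696-46305723 (plus strand) and chr11:23771042-23771070 (minus strand), in the order printed.

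*Nfkbie*: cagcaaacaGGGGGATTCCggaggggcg

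*Tnfaip3*, distal: actcacgcgGGGACACCCCggggcggga

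*Tnfaip3*, proximal: atttccatcGGAAATCCCCctgttggca

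*Nfkbid*, distal: ccccgccctGGGACTTCCCagagcacca

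*Nfkbid*, proximal: ggccgaacaGGAATTCCCCgtgcgcggg

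*Bcl3*: cggcggcagGGGAAGTCCCgctgcccgg

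*Nfkb2*, upstream start, distal: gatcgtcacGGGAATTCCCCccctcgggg

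*Nfkb2*, upstream start, proximal: gggccgaaaGGGGCTTTCCcggctggag

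*Nfkb2*, downstream starts, distal: ccgacggcaGGAATGTCCCcacaaaagc

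*Nfkb2*, downstream starts, shared by 2 windows: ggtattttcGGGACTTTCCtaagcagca

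*Rel*: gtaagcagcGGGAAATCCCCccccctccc

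The site of *Nfkbia* began 29 bases before the start site, and that of *Rel* 92 bases and that of *Nfkbie* 106 bases before it. Those of *Tnfaip3* began 125 and 12 bases before the start, and the *Bcl3* match lay just past it. These are matches of letters, and binding was not measured here.

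In FPKM, which allow levels of different genes to be compared, *Nfkbia* stood far above the other members at a mean of 58.6 over the 4 libraries (SD 1.97). *Nfkb1* followed at 16.3 (SD 0.238), then *Nfkbid* at 12.8 (SD 1.19), *Nfkbiz* at 12.6 (SD 2.48), *Rel* at 8.92 (SD 0.149) and *Nfkb2* at 6.51 (SD 0.634). *Bcl3* at 5.21 (SD 0.831), *Tnfaip3* at 4.82 (SD 0.424) and *Nfkbie* at 4.82 (SD 0.54) came next, and *Relb* was lowest at 1.84 (SD 0.128). The library values of *Nfkbid* and *Nfkbiz* overlapped, as did those of *Bcl3*, *Tnfaip3* and *Nfkbie*, so the order within each of these sets is not larger than the spread. Across the 4 libraries *Nfkbiz* was the member with the largest SD, and *Rel* and *Nfkb1* varied little. That SD takes in the difference between genotypes for which *Nfkbiz* was chosen. Within a genotype the SD of *Nfkbiz* was 0.064 FPKM in Dhps cko and 1.17 FPKM in Dhps flox. At the approximate depths given with the processing, these levels stand for about 166 fragments for *Relb* in its lowest library and about 3100 for *Nfkbia* in its highest.

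**Figure D1:**
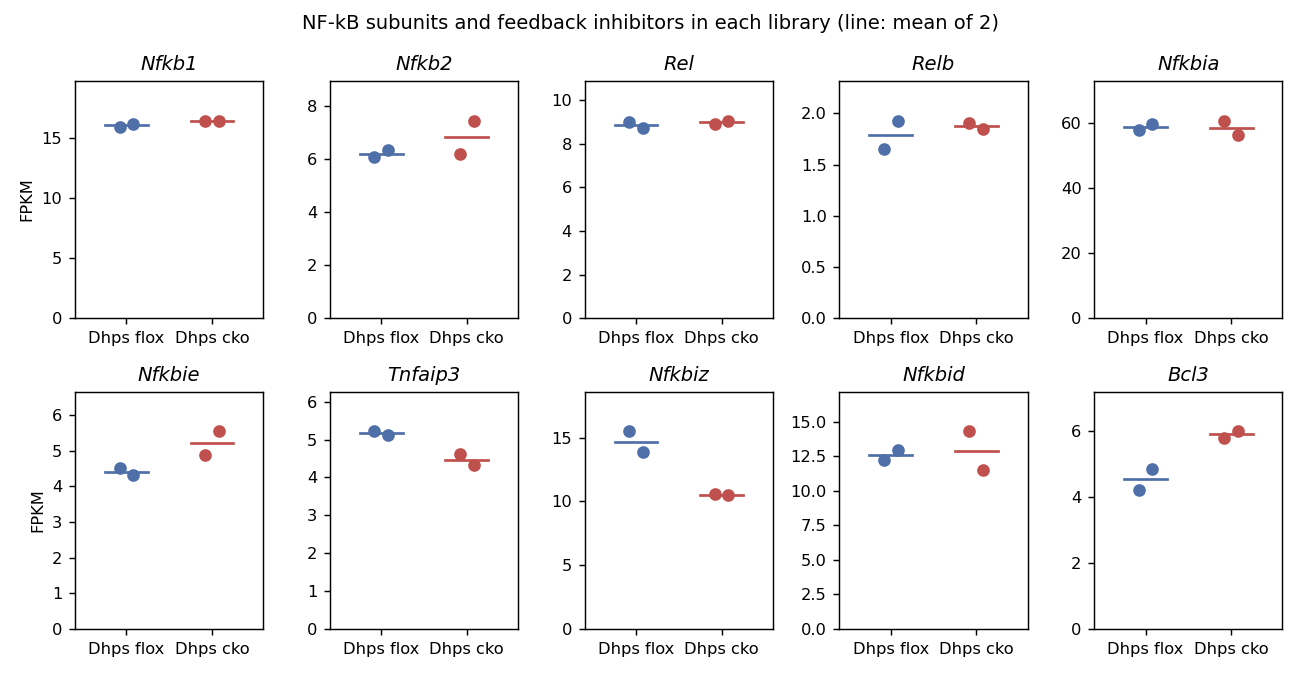
Level of each of the 10 members (FPKM, vertical axes from 0) in the 2 Dhps flox libraries (blue) and the 2 Dhps cko libraries (red), with a line at the mean of each pair. *Nfkbiz* was lower in both Dhps cko libraries (10.57 and 10.48 against 15.49 and 13.84), *Bcl3* was higher in both (5.80 and 5.99 against 4.22 and 4.84), and *Nfkbia* and *Rel* overlapped between genotypes.

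The test was limma on log2(FPKM + 0.1), fitted over all 17948 genes, a scale that understates the changes of low genes. None of the 10 members had an adjusted p under 0.05, where 0.00557% of all genes did. With an unadjusted p under 0.05, 1 of the 10 was lower in Dhps cko (*Nfkbiz*), where 2.28% of all genes were, and 1 was higher (*Bcl3*), where 4.72% were. *Nfkbiz* was chosen for being lower in these libraries, and of the 9 other members 0 were lower at that threshold and 1 (*Tnfaip3*) was lower without overlap. Both Dhps cko values lay below both Dhps flox values for 2 members (*Nfkbiz* and *Tnfaip3*), against 16.0% of all genes, and above them for 3 (*Bcl3*, *Nfkbie* and *Nfkb1*), against 20.0% of all genes. The median log2 fold change of the members was 0.03, and that of all genes was 0.01. In bulk samples such as these, fewer cells of a type and less RNA per cell cannot be told apart.

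None of the 4 subunit genes passed an unadjusted p of 0.05. *Nfkb1* (ENSMUSG00000028163; GRCm38 chromosome 3, 135584655 to 135691547), which encodes the precursor of the DNA-binding partner of RELA, was at 16.45 and 16.47 FPKM in Dhps cko and 15.97 and 16.18 in Dhps flox. The Dhps cko pair lay just above the Dhps flox pair, with a mean at 102.4% of it. *Rel* (ENSMUSG00000020275; chromosome 11, 23736847 to 23770970), a transactivating subunit of lymphoid and myeloid cells, was at 8.89 and 9.06 FPKM in Dhps cko and 9.0 and 8.72 in Dhps flox. Its values overlapped. The 95% interval of the difference ran from -0.12 to 0.19 on the log2 scale for *Nfkb1* and from -0.17 to 0.21 for *Rel*, so a difference within those bounds is not excluded for either gene.

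*Nfkb2* and *Relb* encode the pair of subunits of the non-canonical branch, in which the NFKB2 precursor is processed and pairs with RELB. *Nfkb2* (ENSMUSG00000025225; chromosome 19, 46304320 to 46312385) was at 6.19 and 7.44 FPKM in Dhps cko and 6.05 and 6.35 in Dhps flox. Replicate 2 of Dhps cko stood above the other libraries, which overlapped, and the difference of 0.13 on the log2 scale (standard error 0.12) had an adjusted p of 0.85 from limma. Of the exon bases of *Nfkb2*, 18.1% overlap other genes on the opposite strand, among them *Psd*, and whether strand was used in counting is not given in the sources used here. *Relb* (ENSMUSG00000002983; chromosome 7, 19606217 to 19629438) was at 1.91 and 1.85 FPKM in Dhps cko and 1.65 and 1.93 in Dhps flox, and the values overlapped. Its interval was the widest of the members, from -0.32 to 0.46 on the log2 scale. *Rela*, the main activating subunit and no member of the 10, was at 32.19 and 35.13 FPKM in Dhps cko and 31.50 and 32.44 in Dhps flox, with a log2 fold change of 0.07 (standard error 0.07). Summed with *Rela*, the 5 subunit genes came to 65.6 and 70.0 FPKM in Dhps cko and 64.2 and 65.6 in Dhps flox.

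*Nfkbia* (ENSMUSG00000021025; chromosome 12, 55489410 to 55492647) encodes IκBα, the cytoplasmic inhibitor that NF-κB resynthesizes within its own response. It was at 60.64 and 56.20 FPKM in Dhps cko and 57.75 and 59.60 in Dhps flox. The 2 genotypes overlapped fully, with the Dhps cko values outside the Dhps flox values on both sides. The Dhps cko mean was 99.6% of the Dhps flox mean (log2 fold change -0.01, 95% interval -0.17 to 0.15, adjusted p = 0.99 from limma). *Nfkbie* (ENSMUSG00000023947; chromosome 17, 45555703 to 45563169) encodes IκBε, a second cytoplasmic inhibitor that acts later in the response. It was at 4.88 and 5.55 FPKM in Dhps cko and 4.52 and 4.32 in Dhps flox. The Dhps cko values lay above the Dhps flox values, but the log2 fold change of 0.23 (95% interval -0.04 to 0.51, adjusted p = 0.76 from limma) was within the error of the test.

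*Tnfaip3* (ENSMUSG00000019850; chromosome 10, 19000910 to 19015657) encodes a ubiquitin-editing enzyme that ends signalling upstream of the IκB kinase. It was the member nearest to *Nfkbiz* in direction, at 4.62 and 4.32 FPKM in Dhps cko and 5.22 and 5.12 in Dhps flox. The groups did not overlap. The Dhps cko mean was 86.5% of the Dhps flox mean (log2 fold change -0.21, standard error 0.09, adjusted p = 0.76 from limma), and the 95% interval, from -0.45 to 0.03, included 0.

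The nuclear IκB genes held both members with an unadjusted p under 0.05, on opposite sides. *Nfkbiz* (ENSMUSG00000035356; chromosome 16, 55811375 to 55838899) encodes IκBζ, which is induced by microbial products and is needed for a subset of secondary response genes. It was at 10.57 and 10.48 FPKM in Dhps cko and 15.49 and 13.84 in Dhps flox. The 2 Dhps cko libraries were almost equal, and the lower Dhps flox library still lay above both. On the log2 scale the difference was -0.47 (standard error 0.08, limma adjusted p = 0.48), against a gap of 0.16 between the Dhps flox libraries and 0.01 between the Dhps cko libraries.

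*Bcl3* (ENSMUSG00000053175; chromosome 7, 19808462 to 19822770) encodes a nuclear IκB protein that binds homodimers of the NFKB1 and NFKB2 products. It was at 5.80 and 5.99 FPKM in Dhps cko and 4.22 and 4.84 in Dhps flox. Both Dhps cko libraries lay above both Dhps flox libraries, opposite to *Nfkbiz*. The Dhps cko mean was 130.1% of the Dhps flox mean (log2 fold change 0.38, standard error 0.11, adjusted p = 0.58 from limma), with an unadjusted p of 0.017 that passed 0.05 in 10 of 13 alternatives. It was 0.051 without Dhps flox replicate 1, 0.088 without Dhps cko replicate 1 and 0.11 without Dhps cko replicate 2. The B cell, T cell and macrophage marker sums given above were higher in the same libraries, and their part in the level of *Bcl3* was not tested. Of its exon bases, 6.5% overlap the gene model *Gm16175* on the opposite strand.

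*Nfkbid* (ENSMUSG00000036931; chromosome 7, 30421732 to 30428746) encodes IκBNS, a nuclear IκB protein first known from thymocytes. It was at 14.30 and 11.51 FPKM in Dhps cko and 12.25 and 12.92 in Dhps flox. The values overlapped, and the gap between the Dhps cko libraries (0.31 on the log2 scale) was the widest within a genotype for any member. Its log2 fold change of 0.03 (limma, 95% interval -0.28 to 0.34) turned negative when Dhps cko replicate 1 (-0.13) or Dhps flox replicate 1 (-0.01) was left out.

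Read together within each library, the nuclear IκB transcripts summed to 30.7 and 28.0 FPKM in Dhps cko and 32.0 and 31.6 in Dhps flox. *Nfkbiz* made up 34.5% and 37.5% of that sum in Dhps cko and 48.5% and 43.8% in Dhps flox. *Bcl3* made up 18.9% and 21.4% in Dhps cko and 13.2% and 15.3% in Dhps flox. *Nfkbiz* held the largest share of the 3 in both Dhps flox libraries, and *Nfkbid* did in both Dhps cko libraries. The shares follow from the 3 levels above and add no separate evidence.

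**Figure D2:**
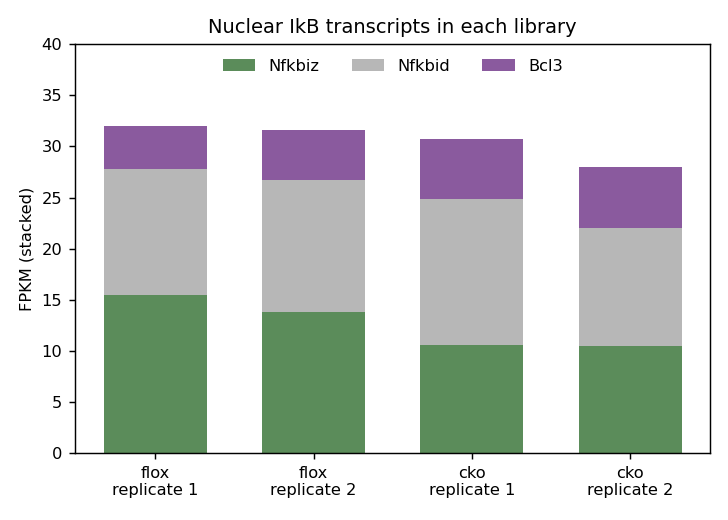
Stacked levels (FPKM, axis from 0) of the nuclear IκB genes *Nfkbiz* (green), *Nfkbid* (grey) and *Bcl3* (purple) in each of the 4 libraries. The *Nfkbiz* part was between 13.84 and 15.49 FPKM in Dhps flox and between 10.48 and 10.57 in Dhps cko, while the *Bcl3* part was larger in both Dhps cko libraries.

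The ratio of *Nfkbiz* to each other member within a library is given as a description, since *Nfkbiz* was chosen for being low. The log2 ratio of *Nfkbiz* to *Nfkbia* was -2.51 and -2.41 in Dhps cko and -1.89 and -2.10 in Dhps flox. Both Dhps cko libraries lay below both Dhps flox libraries, by a mean of 0.47 on the log2 scale (difference -0.47). Against all 9 other members the ratio was lower in both Dhps cko libraries. The difference ran from -0.27 for the ratio to *Tnfaip3* to -0.85 for the ratio to *Bcl3*. An exact two-sided permutation test of 2 libraries against 2 cannot go below p = 0.33, so that test could not pass 0.05 for any of these ratios. No other test was run on them. All 9 ratios share the values of *Nfkbiz*, so their direction was largely set by that choice.

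The rest of the pathway, from lists of genes upstream of and around NF-κB, showed no gene with an unadjusted p under 0.05, where 2.28% of all genes were lower and 4.72% higher. Of 10 genes of the core (*Rela*, *Nfkbib*, the IκB kinase genes, and the kinases that activate it with their TAB adaptors), 0 of 10 were lower and 0 were higher at that threshold, with log2 fold changes from -0.15 to 0.07 and a median of -0.02. Without overlap, 3 of these 10 were lower and 0 higher, against 16.0% and 20.0% of all genes. All 18 receptor adaptor and ligase genes also missed it, with log2 fold changes from -0.15 to 0.19. So did the 14 further negative regulators that were tested, with a median of 0.03. *Tnip3* was left out of that list for its low level. The lowest among the regulators was *Tollip*, named after its values were seen, whose product restrains the signalling of Toll-like receptors. It was at 18.66 and 18.02 FPKM in Dhps cko and 20.18 and 20.80 in Dhps flox (log2 fold change -0.16, adjusted p = 0.71 from limma).

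NF-κB target genes were found on both sides. Of 30 target genes listed, 28 were tested and *Il12b* and *Cxcl3* were below the minimum level. At an unadjusted p under 0.05, 4 of the 28 were lower in Dhps cko (*Cxcl1*, *Cxcl2*, *Ptgs2* and *Il6*), 4 were higher (*Tnf*, *Ier3*, *Icam1* and *Bcl2a1a*) and 20 were neither, where 2.28% of all genes were lower and 4.72% higher, and none had an adjusted p under 0.05 from limma. Without overlap, 9 of the 28 were lower and 11 higher, against 16.0% and 20.0% of all genes. *Ptgs2*, counted as lower both ways, was already named by the paper as lower in these same libraries. Its place in these counts is therefore a description, as for *Nfkbiz*. The median log2 fold change of the 28 was 0.03.

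The lower targets included neutrophil chemokines. *Cxcl2*, a ligand of the neutrophil receptor CXCR2, was at 5.67 and 5.30 FPKM in Dhps cko and 14.42 and 9.73 in Dhps flox. The Dhps flox libraries differed from each other, but both lay above both Dhps cko libraries (log2 fold change -1.10, standard error 0.20, adjusted p = 0.48 from limma). *Cxcl1*, a ligand of the same receptor, was at 0.30 and 0.33 FPKM in Dhps cko and 1.46 and 2.41 in Dhps flox (log2 fold change -2.25, standard error 0.29, adjusted p = 0.38 from limma). Its low Dhps cko values stand for about 18 fragments in the lowest library. *Ptgs2*, which encodes cyclooxygenase-2, was at 0.60 and 0.52 FPKM against 1.35 and 0.84, and its log2 fold change was -0.83 (standard error 0.29). Without Dhps flox replicate 1 that of *Ptgs2* was -0.51, and its unadjusted p was over 0.05 when that library or either Dhps cko library was left out and when all genes above 0 were kept. *Cxcl2* missed that threshold when either Dhps cko library was left out. With a pseudocount of 1 the log2 fold change of *Cxcl1* was -1.14 and that of *Ptgs2* was -0.42. *Il6*, a cytokine gene of the same list, was near the detection limit, at 0 and 0.06 FPKM in Dhps cko and 0.21 and 0.19 in Dhps flox.

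The higher targets encode a cytokine, an adhesion molecule and survival factors. *Tnf*, the cytokine gene, was at 22.75 and 22.47 FPKM in Dhps cko and 15.82 and 16.33 in Dhps flox. The groups were well apart and each pair was tight (log2 fold change 0.49, standard error 0.06, adjusted p = 0.36 from limma, between 0.13 and 0.95 over the alternatives). *Ier3*, a gene of early survival responses, was at 16.02 and 15.12 FPKM in Dhps cko and 10.54 and 12.48 in Dhps flox, and *Icam1*, the adhesion molecule, at 2.13 and 2.46 against 1.66 and 1.58. Their log2 fold changes were 0.44 and 0.47 (standard errors 0.10 and 0.15). *Ier3* missed an unadjusted p of 0.05 when either Dhps cko library was left out, and *Icam1* missed it when Dhps cko replicate 2 or either Dhps flox library was left out. *Bcl2a1a*, a survival gene, was at 4.01 and 4.39 FPKM against 3.49 and 3.27, but it has near-identical copies with which reads could be shared. Macrophages also make *Tnf* and *Icam1*, and the macrophage marker sums were higher in the same libraries. Their part in these levels was not tested. Of the 6 targets ranked first by p, *Cxcl1*, *Cxcl2* and *Ier3* hold the κB consensus in a promoter window and *Tnf*, *Icam1* and *Ptgs2* do not. Sites outside the windows, or with letters that depart from the consensus, were not searched, so these 3 genes may still hold κB sites. These 6 were picked by p, and over the whole target list 8 of 26 hold it.

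**Figure D3:**
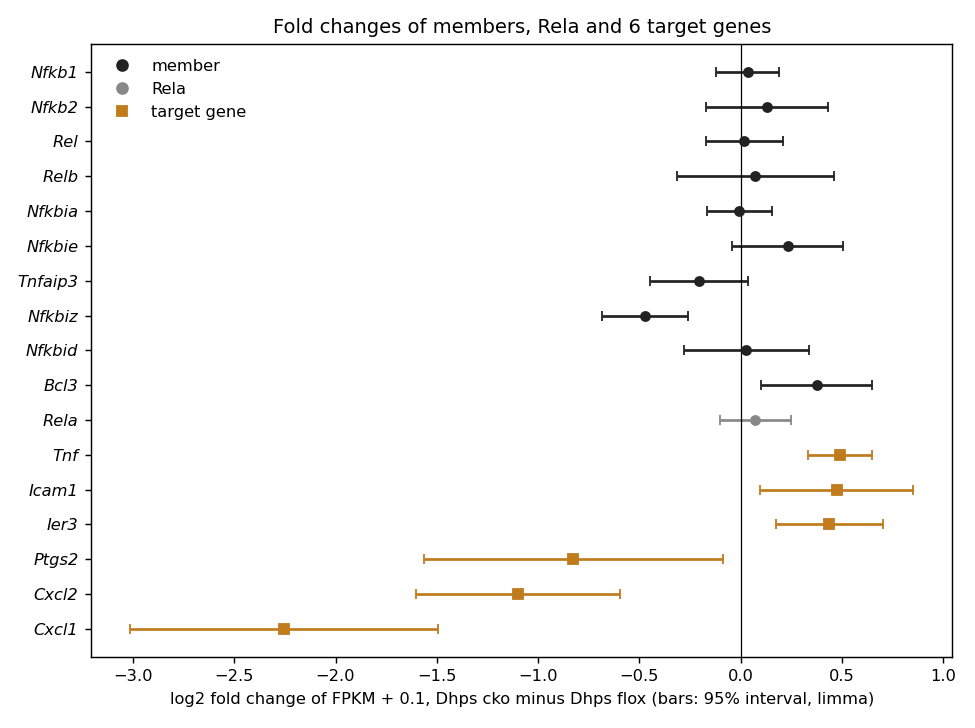
Log2 fold change of FPKM + 0.1 (horizontal axis, Dhps cko minus Dhps flox) with the 95% interval from limma for the 10 members (black), *Rela* (grey) and the 6 NF-κB target genes with the smallest p (orange). The intervals of *Nfkbiz* and *Bcl3* exclude 0 on opposite sides, those of the other 8 members include 0, and the targets lie on both sides, from -2.25 for *Cxcl1* to 0.49 for *Tnf*.

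Immediate-early genes, which are induced rapidly after stimulation by several pathways, were looked at for the same library pattern. Of 14 such genes, 5 were lower and 1 was higher in Dhps cko at an unadjusted p under 0.05, against 2.28% and 4.72% of all genes, and the median log2 fold change was -0.24. *Fos*, an AP-1 subunit gene, was at 102.8 and 97.6 FPKM in Dhps cko and 155.9 and 134.0 in Dhps flox. *Dusp1*, which encodes a phosphatase of MAP kinases, was at 42.51 and 43.03 FPKM against 84.27 and 65.88. In both genes, as in *Nfkbiz*, the Dhps cko libraries were close together and Dhps flox replicate 1 was the highest library. *Zfp36*, whose product destabilizes cytokine transcripts, was at 123.6 and 125.3 FPKM against 126.8 and 119.5, and thus overlapped as *Nfkbia* did. These 3 genes were named after their values were seen. *Atf3*, among the 14 but not among the 5, was already named by the paper as lower in these same libraries. The part of immediate-early induction in the level of *Nfkbiz* was not tested.

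**Figure D4:**
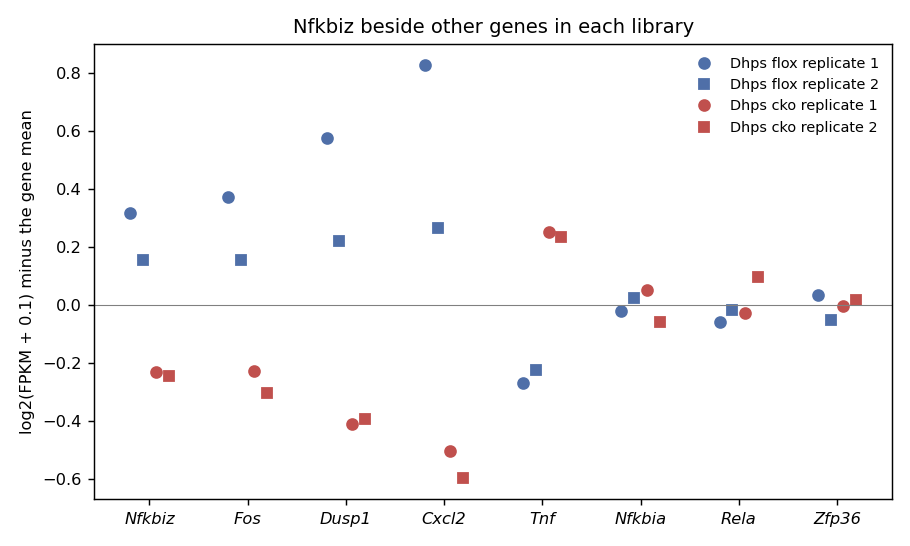
Deviation of log2(FPKM + 0.1) from each gene's mean over the 4 libraries (vertical axis) for *Nfkbiz*, *Fos*, *Dusp1*, *Cxcl2*, *Tnf*, *Nfkbia*, *Rela* and *Zfp36*; blue marks are Dhps flox and red marks Dhps cko, with circles for replicate 1 and squares for replicate 2. *Nfkbiz*, *Fos*, *Dusp1* and *Cxcl2* were lower in both Dhps cko libraries, *Tnf* was higher in both, and *Nfkbia*, *Rela* and *Zfp36* overlapped.

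The genes whose deviations over the 4 libraries lay nearest to those of *Nfkbiz*, by Euclidean distance on the log2 scale among 10628 other genes averaging 1 FPKM or more, were *Rfx2* (distance 0.053), *Rsph1* (0.062), *Zfp622* (0.069), *Ifit1bl1* (0.074) and *Cd14* (0.080). *Cd14*, a co-receptor for lipopolysaccharide, was at 12.02 and 12.50 FPKM in Dhps cko and 17.62 and 15.27 in Dhps flox. *Fos* came sixth in that order. With 4 libraries in 2 groups, such likeness describes these libraries only. The nearest other member was *Tnfaip3*, at rank 295 with a distance of 0.29.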

How the data were processed

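Bulk RNA sequencing of sorted splenic PMN-MDSCs gave 4 libraries, 2 Dhps cko and 2 Dhps flox, grouped by their titles. The authors filtered reads with Cutadapt, aligned them with HISAT2 (mm10 in the submitters' processing notes) and calculated FPKM per gene with StringTie and ballgown. The deposited FPKM are rounded to 2 decimals, and neither a scaling between libraries nor an annotation is given in the sources used here. A library with a few very abundant genes therefore shows lower values for all others. GENCODE M21 (GRCm38, the same build) gave positions and overlaps and held 28511 of the 28585 identifiers.

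Genes averaging 0.1 FPKM or more were compared on log2(FPKM + 0.1) with limma 3.58.1 in R 4.3.3 (mean-variance trend, Benjamini-Hochberg over 17948 genes, threshold 0.05). Other steps used Python 3.11.15 with pandas 2.3.3 and numpy 2.4.6. Exact permutation tests were two-sided. Count tests were not run, since FPKM carry no counts. Steps between low FPKM of single-exon genes gave approximate depths of 29500000 to 32400000 fragments. Only 39.5% to 41.8% of those values lay within 0.15 of a whole read, where chance gives 30%, so whole reads were not recovered. Fragments per gene use the longest transcript and are approximate. At these depths counting error alone is about 0.11 on the log2 scale for *Relb* and 0.028 for *Nfkbia* in their lowest libraries.

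The members and all gene lists were chosen with earlier results of these data known. The text names all 10 members, *Dhps*, *Rela*, every other core or inhibitory gene with an unadjusted p under 0.05 (0 genes), the 6 target genes with the smallest unadjusted p, and the 5 genes nearest to *Nfkbiz*. Genes named otherwise are said to be so or stand in counts or marker sums. Alternatives were other pseudocounts, level filters and scalings, no trend, a replicate block and leaving out each library.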

Additional observations from a re-analysis of the deposited data

How the results depend on the processing

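The values depend on 2 libraries per genotype, and the proportion of the sexes and the marker sums of other cells moved with genotype. *Nfkbiz* kept its direction under all 13 alternatives, with log2 fold changes from -0.55 to -0.39. Both of its Dhps cko values lay below both Dhps flox values, so leaving out a library could not reverse that direction. *Nfkbiz* was also chosen for being lower, so the kept direction is not independent evidence. Its adjusted p by limma ran from 0.24 to 0.68 in the alternatives that kept all libraries. *Bcl3* ranged from 0.28 to 0.47 and *Tnfaip3* from -0.25 to -0.16. The scalings moved the median of all genes by at most a few hundredths on the log2 scale, to -0.02 with TPM.

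At an unadjusted p under 0.05, 410 genes were lower and 847 higher in Dhps cko. The number with an adjusted p under 0.05 by limma was 1, and it was 0 with a pseudocount of 0.01, with all genes above 0 and with the replicate block, 2 with TPM and with quantile normalization, 4 with a minimum mean of 1 FPKM, and 0 to 0 with each library left out, where fewer samples remain and the lone library is assumed to vary like the others. The members higher at an unadjusted p under 0.05 numbered 0 to 1 with a library left out, and the members lower without overlap 2 to 4 (4 without Dhps cko replicate 1). The member median was -0.00089 with TPM. The cause was not tested where none is given.

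Members with differences near 0 changed sign. *Nfkbid* was at -0.0038 with TPM and between -0.13 and 0.18 with a library left out (-0.13 without Dhps cko replicate 1, -0.01 without Dhps flox replicate 1). *Nfkbia* was between -0.062 and 0.048 with a library left out (0.048 without Dhps cko replicate 2, 0.02 without Dhps flox replicate 2). *Nfkb2* ran from -0.0019 (without Dhps cko replicate 2) to 0.26, *Rel* was at -0.013 with TPM and ran from -0.0040 (without Dhps flox replicate 2) to 0.041, and *Relb* ran from -0.036 (without Dhps flox replicate 1) to 0.18.

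The replicate numbers were not known to pair libraries, and deviations of same-numbered libraries correlated at -0.057 over 10629 genes. The replicate block cannot move a fold change in this balanced design. With it, *Nfkbiz* was at -0.47 (adjusted p = 0.62 by limma), and 1 member was lower and 1 higher at an unadjusted p under 0.05.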
